A study of Mus musculus with 2 samples.

Results

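The cyclin-dependent kinase (Cdk) inhibitors were examined in regenerating liver as 8 genes, Cdkn1a, Cdkn1b, Cdkn1c, Cdkn2a, Cdkn2b, Cdkn2c, Cdkn2d and Cdkn3. They were chosen by gene symbol, and all 8 were found among 33224 gene symbols, each on 1 row that names no other gene. RNA came from livers of male C57BL/6 mice, either wild-type (WT) or PPARβ-null (KO), taken 48 hr after partial hepatectomy (PH, the surgical removal of most of the liver). The samples carry an age of 4 months, the protocol a range of 3 to 5 months and the design text 3 months. There was 1 library per genotype, so no difference below carries an error between mice, no test between genotypes was possible, and genotype cannot be told apart from any other difference between these livers. Both groups of mice had the operation, and no liver before PH was sequenced. The structure of the targeted Ppard allele and the number of mice behind each library are not given in the sources used here.

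Cdk inhibitors restrain the kinases that drive a cell from G1 into DNA synthesis and division. The Cip/Kip proteins p21 (Cdkn1a), p27 (Cdkn1b) and p57 (Cdkn1c) bind cyclin/Cdk complexes, those of Cdk2 above all. The Ink4 proteins, encoded by Cdkn2a to Cdkn2d, bind Cdk4 and Cdk6 and keep them from D-type cyclins. Cdkn3 differs in kind, as it encodes a phosphatase that removes the activating phosphate from Cdk2. After PH most hepatocytes leave rest and divide, and p21 is known as the inhibitor that is induced in regenerating liver.

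Cdkn1a was the member with the highest expression in either liver and the only 1 of the 8 that was higher in KO than in WT. The other 7 had lower values in KO, as did 74.8% of all 15727 genes with a mean of at least 0.1 FPKM (a level per kilobase of exon and per mapped fragment of the library). In RNA of whole liver, fewer cells of a type and less RNA per cell cannot be told apart. Cdkn2c, Cdkn2d and Cdkn2b were lower by more than 8-fold and Cdkn1b, Cdkn1c and Cdkn2a by 1.84- to 2.50-fold, while Cdkn3 was listed at 0 in KO. More than 1.5-fold lower in KO were 7 members, and none was more than 1.5-fold higher. Of these 7, Cdkn2a had a counting interval that spans a ratio of 1, Cdkn2b had fewer than 3 fragments in KO, and the 0 of Cdkn3 may be a failed estimate. Among the 6 members with more than 3 fragments in both libraries, 5 were lower by that fold. Across the 15727 genes, 26.0% were lower in KO and 6.05% higher in KO by that fold. With a 2-fold limit the members numbered 5 lower and 0 higher, against 13.4% and 2.79% of all genes. The median log2 KO/WT of the 8 members was -1.09 with a pseudocount of 0.1 FPKM, and that of all such genes was -0.25. The members' median depends on this setting, being -0.51 with a pseudocount of 1 FPKM, -1.96 with 0.01 FPKM and -2.84 for the members with a mean of at least 1 FPKM. All 8 members reached a mean of 0.1 FPKM, but Cdkn2a and Cdkn2b did so narrowly and only through the WT value.

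**Figure D1:**
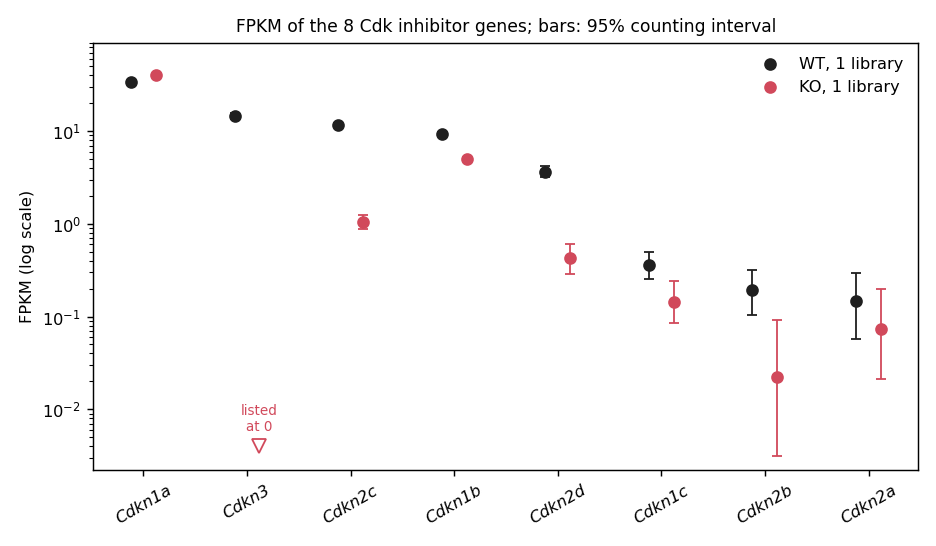
FPKM of the 8 genes in the WT (black) and KO (red) library on a log axis, ordered by the WT level. Bars are 95% intervals of counting error from estimated fragments. Cdkn1a has the highest level in either library, and Cdkn3 has no KO value above 0.

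Promoter sequences are shown here for the members whose values differ most in kind. They are Cdkn1a, which was higher in KO, Cdkn3, listed at 0 in KO, and Cdkn2c, which had the largest ratio among the members with a value in both libraries. Each is the 250 bases before a RefSeq start on GRCm38.p6, read 5′ to 3′ on the gene's strand. Capitals mark the p53 site in Cdkn1a, the CHR (TTTGAA) and CCAAT motifs in Cdkn3, and the GC boxes (GGGCGG) in Cdkn2c, on either strand.
Cdkn1a, chr17:29090729-29090978, plus strand: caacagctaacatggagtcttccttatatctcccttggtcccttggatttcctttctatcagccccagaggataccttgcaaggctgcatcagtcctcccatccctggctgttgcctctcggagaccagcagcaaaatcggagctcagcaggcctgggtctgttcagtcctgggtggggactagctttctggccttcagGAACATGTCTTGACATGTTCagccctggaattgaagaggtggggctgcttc
Cdkn3, chr14:46760291-46760540, plus strand: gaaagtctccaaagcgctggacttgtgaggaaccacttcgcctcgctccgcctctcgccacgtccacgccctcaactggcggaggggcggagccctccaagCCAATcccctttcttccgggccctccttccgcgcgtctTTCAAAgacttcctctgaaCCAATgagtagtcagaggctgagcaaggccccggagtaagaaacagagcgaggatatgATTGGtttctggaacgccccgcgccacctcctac
Cdkn2c, chr4:109666757-109667006, minus strand: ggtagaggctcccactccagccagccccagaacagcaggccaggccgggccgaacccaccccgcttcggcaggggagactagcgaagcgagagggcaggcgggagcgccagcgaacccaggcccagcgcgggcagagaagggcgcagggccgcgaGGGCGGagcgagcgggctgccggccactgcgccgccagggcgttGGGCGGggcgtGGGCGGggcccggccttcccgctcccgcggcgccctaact

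The RefSeq table held 10 promoter entries for 7 of the members, all but Cdkn1c. The p53 site was searched as a pair of adjacent half-sites with no spacer and at most 1 mismatch, and 0.0761% of 32851 promoters held such a match. In Cdkn1a it read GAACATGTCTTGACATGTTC and began 51 bases before the upstream of the gene's RefSeq starts, which is 2841 bases before the downstream start. No other member's entry held it. Cdkn3 held a CHR 111 bases before its start and CCAAT motifs at 149, 92 and 34 bases. Among the other members, Cdkn2b held a CHR, and Cdkn1b and Cdkn2d held CCAAT motifs. Such motifs are common in promoters of genes of the G2 and M phases. They were found in 16.0% (CHR) and 33.8% (CCAAT) of all promoters, and in 6 and 13 of the 15 mitotic genes that matched the table. A gene counted here if any of its entries held the motif, whereas the percentages count single entries. GC boxes, the binding motif of Sp1, stood at 95, 51 and 40 bases in Cdkn2c, and 32.7% of promoters held 1 or more, as did entries of Cdkn1a, Cdkn1b, Cdkn2a, Cdkn2d and Cdkn3. An E2F motif (TTTCCCGC, TTTCGCGC, TTTGCCGC or TTTGGCGC) occurred in 1.86% of promoters and, among the members, in Cdkn2a. It was found in 0 of the 15 mitotic genes. These matches describe letters in a window and were not measured as binding.

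Cdkn1a (p21; chromosome 17, 29227924 to 29237671 on NCBIM37, plus strand, 3 annotated transcripts) measured 33.5 FPKM in WT liver and 40.4 FPKM in KO liver. It stood above 86.0% of all genes in WT and above 89.3% in KO. About 3386 fragments in WT and 4310 in KO stood behind these levels, an estimate that takes each gene at its longest transcript. The KO/WT ratio was 1.21, with a 95% interval of 1.15 to 1.26 that covers counting error only. A ratio WT/KO at least as high as that of Cdkn1a was found in 88.4% of all genes. The difference was short of the 1.5-fold line. Scaling bears on this value, since the median expressed gene was lower in KO by 0.24 on the log2 scale. After centring on that median the KO/WT ratio of Cdkn1a was 1.42, with equal upper quartiles 1.46, and with equal sums of FPKM 1.19.

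Cdkn1b (p27; chromosome 6, 134870419 to 134875531, plus strand) was present at 9.28 FPKM in WT and 5.04 FPKM in KO. Its WT/KO ratio was 1.84 with a counting interval of 1.72 to 1.98. That ratio was near the 1.5-fold line once libraries were rescaled, at 1.56 after centring and 1.52 with equal upper quartiles. Cdkn1c (p57; chromosome 7, 150644255 to 150646955, minus strand), an imprinted gene expressed mainly from the maternal copy, had low levels of 0.361 FPKM in WT and 0.145 FPKM in KO. Only about 36.9 and 15.6 fragments were behind them, and the ratio of 2.50 had an interval of 1.33 to 4.70. Taken as a family, Cip/Kip mRNA summed to 43.1 FPKM in WT and 45.6 FPKM in KO, with p21 higher and p27 lower in KO.

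Among the Ink4 genes, Cdkn2c (p18; chromosome 4, 109333481 to 109339794, minus strand) differed most. It measured 11.6 FPKM in WT liver but 1.05 FPKM in KO liver, a WT/KO ratio of 11.0 with a counting interval of 9.31 to 13.2. Only 1.80% of all genes had a ratio as high or higher. Cdkn2d (p19Ink4d; chromosome 9, 21092907 to 21095653, minus strand) followed with 3.67 FPKM in WT against 0.425 FPKM in KO. Its ratio of 8.62 had an interval of 5.94 to 13.2, and the intervals of Cdkn2c and Cdkn2d overlap. Genes beside them on the chromosome had smaller differences. Atg4d, 0.491 kb from Cdkn2d, measured 6.82 FPKM in WT and 7.84 FPKM in KO, while 9630013D21Rik, 2.86 kb from Cdkn2c, was 1.97-fold lower in KO and Faf1, 9.40 kb from it, 1.10-fold.

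Cdkn2a and Cdkn2b lie 11.6 kb apart on chromosome 4 and were near the limit of detection. Cdkn2b (p15, a TGF-β-responsive inhibitor; 88952198 to 88956941) was at 0.194 FPKM in WT and 0.0222 FPKM in KO. About 14.3 and 1.73 fragments stood behind these values, so that the WT/KO ratio of 8.74 had an interval from 1.70 to 67.0. Cdkn2a (88920377 to 88940557) was at 0.145 FPKM in WT and 0.0733 FPKM in KO, about 7.15 fragments in WT and 3.80 in KO. The ratio of 1.98 had an interval of 0.470 to 8.61, and a difference was not detectable at this depth. Cdkn2a encodes both p16Ink4a and p19Arf from transcripts that share exons, and a value per locus does not separate them. The Ink4 genes together summed to 15.6 FPKM in WT and 1.57 FPKM in KO, nearly all of it from Cdkn2c and Cdkn2d.

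Cdkn3 (chromosome 14, 47380216 to 47391200, plus strand) had the second level among the members in WT, 14.7 FPKM from about 611 fragments, and was listed at 0 in KO. No ratio is given, because an exact 0 in these values can be a failed estimate, and Hmgcs1, a gene of cholesterol synthesis, was also listed at 0 in both libraries. On the Cdkn3 transcript 3 fragments would have been worth 0.0682 FPKM in the KO library. The neighbouring genes had values in both libraries. Cnih, 4.06 kb away, measured 53.6 FPKM in WT and 43.5 FPKM in KO, and Gmfb 14.3 and 12.4 FPKM. Of all named loci with at least 3 FPKM in WT, 2 were listed at 0 in KO, namely Cdkn3 and Psrc1, which encodes a protein of the mitotic spindle. Below that limit, the mitotic gene Bub1 had 2.68 FPKM in WT and was also listed at 0 in KO. Psrc1 and Bub1 were named after their values were seen.

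**Figure D2:**
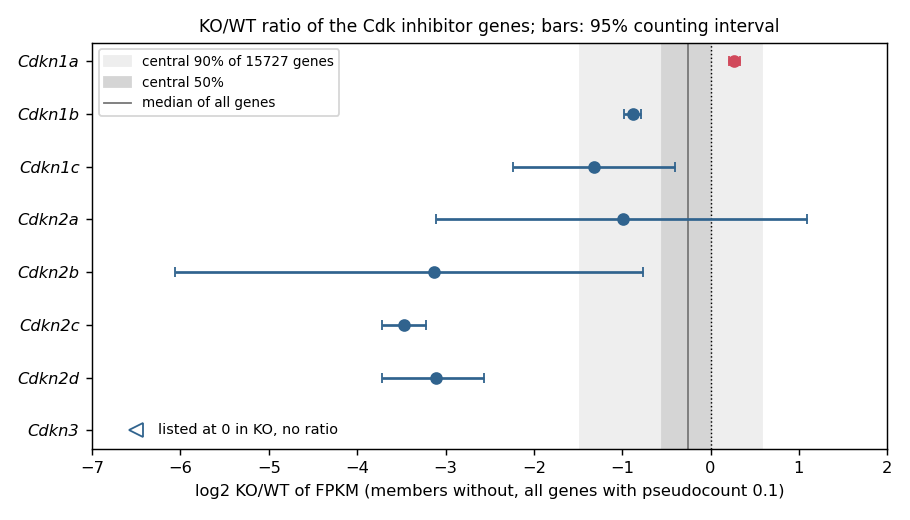
log2 KO/WT of FPKM for 7 members, with no pseudocount and with 95% intervals of counting error, over shaded bands for the central 90% and 50% of 15727 genes (pseudocount 0.1). Cdkn3 is marked as listed at 0, with no ratio. Cdkn1a is the only point to the right of 0, and Cdkn2c and Cdkn2d lie beyond the central 90%. Cdkn2b is drawn beyond that band too, but with the pseudocount of the bands its log2 is -1.27, inside the lower edge of -1.48. The wide bars of Cdkn2a and Cdkn2b reflect few fragments.

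The order of the members differed between the livers. In WT it ran Cdkn1a, Cdkn3, Cdkn2c, Cdkn1b, Cdkn2d, Cdkn1c, Cdkn2b, Cdkn2a, and in KO Cdkn1a, Cdkn1b, Cdkn2c, Cdkn2d, Cdkn1c, Cdkn2a, Cdkn2b, Cdkn3. Cdkn1a exceeded the next member 2.29-fold (Cdkn3) in WT and 8.02-fold (Cdkn1b) in KO. In WT the counting intervals overlapped between Cdkn1c and Cdkn2b and between Cdkn2b and Cdkn2a. In KO they overlapped between Cdkn1c and Cdkn2a, between Cdkn2a and Cdkn2b, and between Cdkn2b and Cdkn3. The other neighbours in either order differed by more than counting error. Leaving out Cdkn3, p21 mRNA made up 57.0% of the summed inhibitor FPKM in WT and 85.7% in KO. The share of p18 mRNA was 19.7% in WT and 2.23% in KO, that of p27 mRNA 15.8% and 10.7%.

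**Figure D3:**
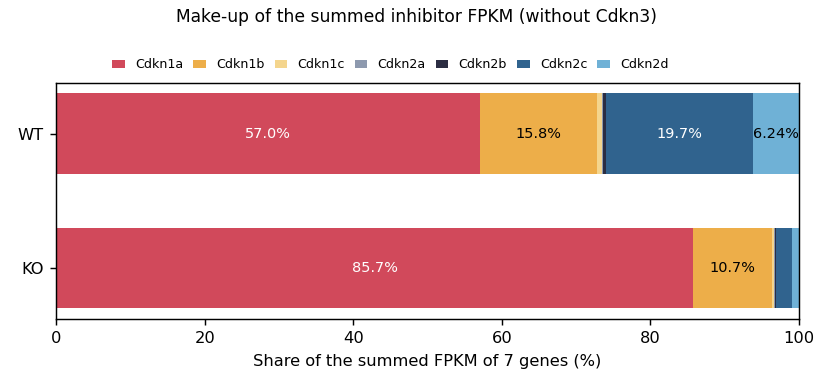
Share of each gene in the summed FPKM of the 7 inhibitor genes without Cdkn3, in percent, for the WT and KO library. Cdkn1a takes 57.0% in WT and 85.7% in KO, while Cdkn2c and Cdkn2d shrink.

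Most of the kinases and cyclins that these proteins bind were also lower in KO, though not evenly. Of 12 such genes 8 were more than 1.5-fold lower in KO and 0 higher, against 26.0% and 6.05% of all genes. The median log2 KO/WT of the 12 was -1.90, and that of all genes -0.25. The genes of early G1 differed least. Ccnd1, the D-type cyclin of dividing hepatocytes, had 21.3 FPKM in WT and 23.5 FPKM in KO, and its partner Cdk4 had 28.3 and 25.1 FPKM. The log2 KO/WT of Cdk4, -0.17, lay above the median expressed gene (-0.24), so that its direction turns once libraries are centred on it. Ccnd3 (1.38-fold), Cdk6 (1.49-fold) and Ccnd2 (1.67-fold) were lower in KO by small folds. Cdk2 was 2.46-fold lower in KO, Ccne1 6.12-fold and Ccne2 18.2-fold, the E-type cyclins being those that activate Cdk2 at the entry to S phase. The S and M phase genes differed most. Ccna2 had 15.3 FPKM in WT and 0.227 FPKM in KO, Ccnb1 20.2 and 0.0562 FPKM, Ccnb2 18.4 and 0.0907 FPKM, and Cdk1 41.9 and 0.434 FPKM.

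Set against these partners within each library, p21 mRNA stood at 1.57 times the FPKM of Ccnd1 in WT and 1.72 times in KO, and at 1.18 and 1.61 times that of Cdk4. Against Cdk2 it stood at 4.23 times in WT and 12.6 times in KO, and against Ccne2 at 6.19 and 136 times. For p18 mRNA the ratio to Cdk4, one of the kinases it binds, was 0.410 in WT and 0.0418 in KO. These are ratios of mRNA levels per length and not of proteins.

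Transcription of Cdkn1a is a classical response to p53. The other p53 targets were a list of 21 genes, and 16 of them were more than 1.5-fold lower in KO while 1, Fas, was higher (6.98 and 12.4 FPKM in WT and KO). Of all genes 26.0% were lower and 6.05% higher in KO by that fold. The median log2 KO/WT of the 21 targets was -0.79, and that of all genes -0.25. Phlda3 had 2.85 FPKM in WT and 0.182 FPKM in KO, Aen 16.8 and 7.47 FPKM, and Polk 2.23 and 0.971 FPKM. Cdkn1a therefore stood with the minority of this list, among them Perp (KO/WT 1.33) and Ei24 (1.03), that was not lower in KO. The gene of p53 itself, Trp53, had 12.2 FPKM in WT and 9.98 FPKM in KO. With equal upper quartiles 10 of the 21 genes were past 1.5-fold lower and 2 higher, and with a 2-fold limit 8 and 0. The shares of all genes at 2-fold were 13.4% and 2.79%, while those with equal upper quartiles are not given here.

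The list of other transcriptional regulators of the inhibitors held 17 genes, of which 16 reached 0.1 FPKM. More than 1.5-fold lower in KO were 5 and higher 1, shares near those of all genes (26.0% and 6.05%). With equal upper quartiles these counts were 3 and 2, for which no share of all genes is given here. With a 2-fold limit they were 2 and 0, against 13.4% and 2.79% of all genes. Ezh2, the Polycomb methyltransferase that silences the Cdkn2a locus, had 8.37 FPKM in WT and 1.84 FPKM in KO. Klf6, an activator of Cdkn1a, had 7.86 and 2.71 FPKM, and Foxo3, which drives Cdkn1b, 9.38 and 5.19 FPKM. Foxo1, a close relative, had 9.19 FPKM in WT and 6.13 FPKM in KO. Bmi1, a Polycomb repressor of Cdkn2a, was 1.27-fold higher in KO, and Ets2 1.68-fold.

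Cdk inhibitor proteins are removed by ubiquitin ligases, so mRNA levels tell only part of their abundance. Among 11 genes of this turnover 5 were more than 1.5-fold lower in KO and 0 higher, against 26.0% and 6.05% of all genes. These 5 were Skp2, Cks1b, Dtl, Pcna and the scaffold gene Cul4b. Skp2, which with Cks1b marks p27 for destruction, had 2.39 FPKM in WT and 0.623 FPKM in KO, and Cks1b 15.7 and 5.16 FPKM. Dtl, which together with Pcna directs a Cul4 ligase to p21, had 3.29 and 0.0489 FPKM, and Pcna 66.8 and 13.0 FPKM. The ligase scaffolds differed little, with WT/KO ratios of 0.893 for Cul1, 0.992 for Cul4a, 1.16 for Skp1a, 1.17 for Rbx1 and 1.19 for Ddb1, and Cul4b was the exception at 1.60. Rnf123, whose row also names another gene, had a ratio of 1.10.

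Downstream of the Cdks stand 11 genes of Rb pocket proteins and E2fs. Of these, 5 were lower in KO by more than 1.5-fold and 0 higher, against 26.0% and 6.05% of all genes. The others were within that fold, and E2f6, E2f4 and Rbl2, with log2 KO/WT of -0.04, -0.06 and -0.11, lay above the median expressed gene (-0.24), so that their direction turns once libraries are centred on it. The largest differences were those of E2f8 (4.91 and 0.337 FPKM in WT and KO), Rbl1, which encodes the pocket protein p107 (4.00 and 0.348 FPKM), and E2f1 (6.99 and 1.03 FPKM). All 18 mitotic genes were lower in KO by more than 1.5-fold, their median log2 KO/WT being -5.65. Cdc20, Birc5 and Prc1 had 33.6, 25.5 and 13.5 FPKM in WT and 0.161, 0.111 and 0.0552 FPKM in KO. For the members with more than 3 fragments in both libraries, the gene of nearest log2 KO/WT among 118 genes of these lists was Aurka (a mitotic kinase) for Cdkn2c, Dbp (a clock output gene) for Cdkn2d, Cry2 for Cdkn1b, Zmat3 for Cdkn1c, Slc22a18 for Cdkn2a and Bmi1 for Cdkn1a. With 2 libraries, likeness means a like log2 value at a pseudocount of 0.1 FPKM and no more, and for low members the plain ratios differ (WT/KO 1.98 for Cdkn2a and 1.42 for Slc22a18).

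**Figure D4:**
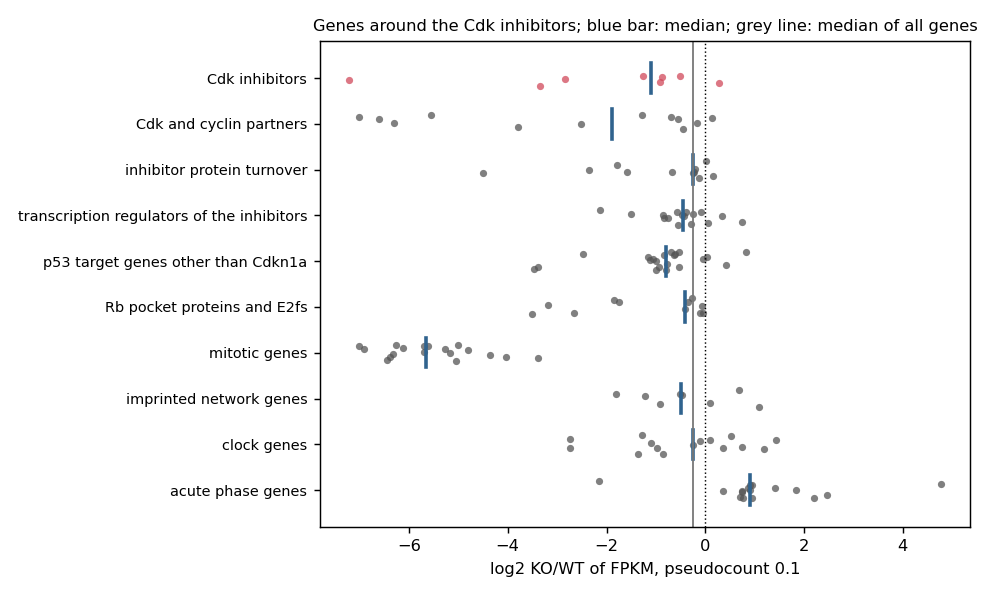
log2 KO/WT of FPKM with a pseudocount of 0.1 for each gene of the Cdk inhibitors (red) and of 9 lists (grey points), with the median of each list (blue bar) and of all genes (grey line). The mitotic genes lie farthest to the left with a median of -5.65, the acute phase genes lie to the right, and the leftmost red point, Cdkn3, is placed by the pseudocount because its KO value is 0.

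Other measures also differed between these livers, in either direction, and their part in the level of Cdkn1a was not tested. Acute phase genes, which hepatocytes induce in inflammation, were higher in KO by more than 1.5-fold in 14 of 16, and in 5 by more than 2-fold. Of all genes 6.05% and 2.79% were higher by these folds. Hamp, the gene of hepcidin, was lower (634 FPKM in WT and 143 FPKM in KO). The FPKM of the list summed to 27180 in WT and 69109 in KO. Saa3 was 27.8-fold, Saa2 5.51-fold and Saa1 4.63-fold higher in KO. Clock genes differed in both directions, 7 of 15 lower and 3 higher by more than 1.5-fold, against 26.0% and 6.05% of all genes. Dbp was 6.99-fold, Per3 8.18-fold and Tef 2.60-fold lower in KO. Cdkn1a also lies on the chromosome of the targeted gene, 789.5 kb beyond the end of Ppard (chromosome 17, 28369699 to 28438414). Ppard itself had 2.67 FPKM in WT and 2.42 FPKM in KO, a value over all its exons. Within 2 Mb of Ppard 61 other named loci had a mean of at least 0.1 FPKM. Of these, 12 were more than 1.5-fold lower in KO and 1 was higher, against 26.0% and 6.05% of all genes. The median log2 KO/WT of the 61 loci was -0.29. The 12 loci between Ppard and Cdkn1a ranged from -0.69 to 0.47, with 7 lower and 5 higher in KO. At or above the value of Cdkn1a were 4 of the 61.

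**Figure D5:**
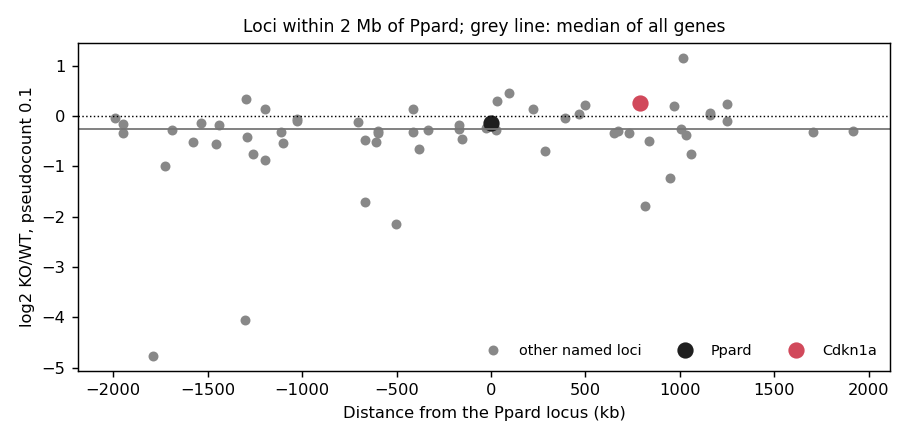
log2 KO/WT of FPKM with a pseudocount of 0.1 for named loci within 2 Mb of Ppard, by distance from the Ppard locus in kb. Cdkn1a (red) lies 789.5 kb from Ppard (black), above the median of all genes (grey line), as do 4 other loci at its height or higher.

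Many markers of the other liver cells were lower in KO by more than 1.5-fold, the share over all genes being 26.0%. Endothelial markers were more than 1.5-fold lower in 5 of 6 (summed FPKM 28.4 in WT and 17.5 in KO), macrophage markers in 5 of 7 (54.0 and 34.9), stellate cell markers in 3 of 6 (30.7 and 14.3) and cholangiocyte markers in 3 of 5 (29.8 and 25.7). Others were near equal or higher in KO, such as Marco (KO/WT 1.12), Sox9 (0.913) and the erythroid Alas2 (1.82). Stab2 had 9.66 and 6.23 FPKM in WT and KO, Clec4f 17.3 and 10.6, and Col1a1 8.56 and 1.75. Neutrophil and lymphocyte markers summed to at most 12.9 and 0.491 FPKM in WT, and Ly6g, Camp and Mpo were at 0 in both libraries. Erythroid markers summed to 295 FPKM in WT and 252 FPKM in KO. Hepatocyte markers summed to 15711 and 13682 FPKM, with 3 of 7 more than 1.5-fold lower in KO. Hepatocyte markers were thus abundant in both libraries. Whether these markers bear on Cdkn1c, Cdkn2a or Cdkn2b was not tested. Among imprinted genes that share a growth-control network with Cdkn1c, 8 of 12 reached 0.1 FPKM, 4 were more than 1.5-fold lower in KO (Mest by 2.57-fold) and 2 higher (Meg3 and Peg3, 1.02 and 0.918 FPKM in WT, 2.28 and 1.53 FPKM in KO).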

How the data were processed

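RNA of 1 WT and 1 KO liver preparation was read as 100 bp on an Illumina instrument (paired ends per the labels, single ends per the paper's methods). The authors aligned reads with TopHat2 2.0.0 to mm9 (NCBI37), assembled with Cufflinks 1.3.0 and had Cuffdiff estimate 1 FPKM per locus. The authors' deposited FPKM values were used as they stand. The remaining columns (fold change, statistic, p and q) hold the authors' own comparison and were not used.

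Rows of a symbol were summed, and 21 of 38016 rows with status HIDATA were left out. Intervals were computed with scipy 1.17.1, tables with pandas 2.3.3 and numpy 2.4.6, and plots with matplotlib 3.10.9, all under Python 3.11.15. Coordinates of loci are on NCBIM37 and count from 1, and transcripts are those of GENCODE vM1 on that build. Depth is not in the file. It was estimated from 1243 single-exon genes of at least 1000 nt, of which 150 (WT) and 149 (KO) had low values. Multiplied by length in kb, these FPKM values recurred at steps of 0.0189 (WT) and 0.0179 (KO). Such a step was taken as 1 fragment, or about 52.9 and 55.9 fragments per FPKM and kb. Counting intervals (95%, exact binomial for ratios, exact Poisson for levels) rest on this estimate, on the longest transcript and on counting error only. The steps were tested on simulated libraries, but the outcome is not given here and does not count as a check of the depth estimate.

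The members and lists were chosen with earlier results of these data known, and the motifs with the promoter sequences in view. Named were all members, Ppard, all partner and turnover genes, the 3 genes of largest absolute log2 per other list at a mean of at least 1 FPKM, the 2 most abundant of each marker list (not all printed), and the nearest gene of each member. Fas, Hamp, E2f4, E2f6, Rbl2, Marco, Alas2, Perp, Ei24, Trp53, Foxo1, Bmi1, Ets2, the other genes at 0 and the chromosomal neighbours were named after their values were seen. No test was run, since each genotype had 1 library.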

Additional observations from a re-analysis of the deposited data

How the results depend on the processing

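No paired analysis was possible because each genotype had a single library, and for that reason no library could be left out. The alternatives covered the scaling, the pseudocount, the filter, the handling of rows and the fold limit. The direction of each member was the same under all scalings. Of the member counts and the member and list medians, 108 values stayed within their limits while 5 moved. This tally is no measure of robustness. Some values could not move, since each member has 1 row and passes the filter, and fold counts do not use the pseudocount. The limits are also wide, as the member median of -1.09 counted as staying at -0.51, -1.96 and -2.84. Of the single ratios and the list counts 187 stayed and 21 moved. Among the latter were the ratios of Cdkn1a and Cdkn1b under centring and equal upper quartiles. That of Cdkn2c moved under equal upper quartiles, with a log2 KO/WT of -3.19 against -3.46, just beyond its counting interval. The count of clock genes higher in KO moved from 3 to 5 under both scalings. Imprinted genes lower in KO moved too (4, but 1 with a mean of at least 1 FPKM and 7 with no filter). With a mean of at least 1 FPKM required, 4 members were lower past 1.5-fold, because fewer were counted. Equal upper quartiles moved the median log2 KO/WT of the turnover genes to 0.0217 and that of the p53 targets to -0.53. The median of the mitotic genes was -3.41 with a pseudocount of 1 FPKM and -6.60 with 0.01, since their KO values are near 0. Without Cdkn3, an alternative chosen after seeing the data, 6 members were past 1.5-fold and the median was -0.91. The shortest in place of the longest transcript widened the interval of Cdkn2c to 8.54 to 14.5 and kept that of Cdkn2a across 1. Depth limits Cdkn2a and Cdkn2b most, and no value here measures variation between mice.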

Other observations

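Some loci beside the members had values of their own, and they were picked after these were seen. The locus next to Cdkn1b carried no gene symbol. It lies on chromosome 6 from 134879055 to 134901492, 3.52 kb past the end of Cdkn1b, where GENCODE vM1 has no gene. This locus had 9.75 FPKM in WT and was listed at 0 in KO, a 0 that can be a failed estimate. The reverse was seen at an unnamed locus 69.3 kb from Cdkn2d, listed at 0 in WT and at 134 FPKM in KO. Gpr19, a receptor gene 21.8 kb on the other side of Cdkn1b, had 3.06 FPKM in WT and 0.962 FPKM in KO, whereas Crebl2 and Ddx47, farther out, had 11.2 and 15.7 FPKM in WT and 11.7 and 12.8 FPKM in KO.

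Next to Cdkn2c, 2.86 kb away, 9630013D21Rik had 6.07 FPKM in WT and 3.08 FPKM in KO. Phlda2, an imprinted growth-restricting gene 40.5 kb from Cdkn1c, was at 0.472 FPKM in WT and 0.0635 FPKM in KO, and Slc22a18, which lies between them, at 73.7 and 51.9 FPKM. Beside Cdkn1a, 13.4 kb away, Gm16194 was at 0.350 FPKM in WT and 0.0307 FPKM in KO, on the other side of the KO/WT ratio from Cdkn1a.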
